A study of Mus musculus with 2 samples.

Results

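Smooth muscle contractile genes were compared between 2 libraries of mouse small intestine as a gauge of how much muscle each piece of tissue held. The set is 10 genes chosen by name, Acta2, Actg2, Myh11, Tagln, Des, Cnn1, Smtn, Mylk, Lmod1 and Synpo2, of 27275 genes in the deposited table. All 10 were found there by symbol. RNA of whole tissue, described as proximal small intestine of naïve mice, was sequenced from 1 library labelled WT, genotype Spib+Villin-Cre, and 1 library labelled KO, genotype Spibfl/flVillin-Cre. Both labels name Villin-Cre, a recombinase whose villin promoter works in gut epithelium and not in muscle. Spib encodes an ETS transcription factor of M cells and B cells. The sources used here do not give the age of the mice or any pooling of animals.

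The wall of the small intestine has an inner circular and an outer longitudinal layer of smooth muscle, and a thin muscle sheet lies under the mucosa. Force comes from smooth muscle myosin pulling on actin filaments that are anchored in dense bodies. Calcium entry activates myosin light chain kinase, which phosphorylates the regulatory light chain, and myosin phosphatase reverses this. Serum response factor (SRF), with myocardin and its relatives, drives many contractile genes through CArG boxes. The same genes are active, at other ratios, in muscle of blood vessels, in pericytes and in myofibroblasts.

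Values are FPKM, which is the reads of a gene scaled to its length and to the library's size, so that levels of different genes can be compared. The depth implied by the values was 17425640 reads for WT and 17658566 for KO. Folds are plain ratios of FPKM with an exact Clopper-Pearson 95% interval from the reads of both libraries. These intervals cover counting error only, and even there they can be too narrow, since amplified reads without molecular identifiers can be copies of 1 molecule. With 1 library per genotype no value has a replicate and no test of genotype was made, so each difference is one between these libraries. Spib itself had 4.94 FPKM in WT and 0.592 in KO, which goes with the labels.

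The levels of the muscle genes were close in both libraries, except for Actg2 and Cnn1, which were higher in KO. The 10 genes summed to 596 FPKM in WT and 655 FPKM in KO, a ratio of 1.098 with a counting interval of 1.08 to 1.12. They made up 0.161% of all FPKM in WT and 0.174% in KO. Without Actg2, an alternative added after its value was seen, the ratio of the sums was 1.04, and without Actg2 and Cnn1 it was 1.02. Most of the difference in the sum therefore lay in these 2 genes.

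Actg2 and Acta2, the first pair described, encode the enteric gamma and the vascular alpha isoform of smooth muscle actin. Their proteins are nearly alike, so it matters whether reads of one could be counted for the other. In the GENCODE M21 transcripts the coding sequences were identical at 955 of 1131 aligned bases, or 84.4%, and differed at 176. The 60 coding bases with the most differences are shown because they let the transcripts be told apart. They start at coding base 436 of Acta2 and 433 of Actg2 and are written 5′ to 3′ on the coding strand. The 16 differing bases are in capitals.
Acta2: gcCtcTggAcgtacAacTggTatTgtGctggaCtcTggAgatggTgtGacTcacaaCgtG
Actg2: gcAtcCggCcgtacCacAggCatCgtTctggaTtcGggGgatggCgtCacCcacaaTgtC
The longest run of coding bases that both share was 29 bases long, from base 637 of Acta2 and base 634 of Actg2.
Shared run: gacatcaaggagaagctgtgctatgtagc
Of 1284 windows of 50 bases along the longest Actg2 transcript, 0 occurred in an Acta2 transcript, and 0 of 1284 occurred in any of the other 5 actin genes' transcripts. For Acta2, 0 of 1986 such windows occurred in Actg2 and 7 in any other actin. The sources used here do not state the read length.

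Actg2 (ENSMUSG00000059430, chromosome 6, 83512905 to 83536265, minus strand, mm10) had 78.6 FPKM in WT, from 2133 reads, and 114 FPKM in KO, from 3142 reads. Its ratio of 1.45, with an interval of 1.38 to 1.54, was the highest of the 10. Acta2 (ENSMUSG00000035783, chromosome 19, 34241090 to 34255590, minus strand) had 210.2 FPKM in WT and 208 FPKM in KO, from 6524 and 6552 reads. Its ratio was 0.991, with an interval of 0.958 to 1.03. The intervals of the 2 actins do not overlap. Within each library Acta2 stood above Actg2, by 2.67 times in WT and 1.82 times in KO. This quotient does not depend on library scaling.

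The pair can also be set against the whole actin family. Actb and Actg1, the cytoplasmic actins of all cells, had 938 and 334 FPKM in WT and 866 and 322 FPKM in KO. Actg2 was 4.99% of the summed FPKM of the 6 actin genes in WT and 7.50% in KO, while Acta2 was 13.3% and 13.7%. Acta1, the skeletal muscle isoform, had 13.3 FPKM in WT and 10.1 FPKM in KO. Actc1, the cardiac isoform, had 1.03 and 2.17 FPKM from 29 and 62 reads, a plain ratio of 2.11 (1.34 to 3.40).

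**Figure D1:**
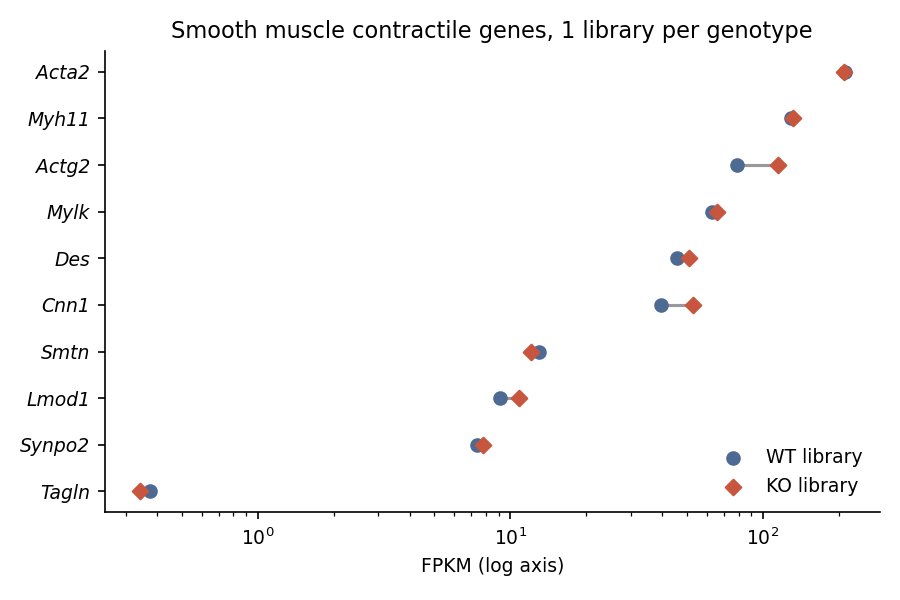
FPKM of the 10 smooth muscle genes in the WT library (circles) and the KO library (diamonds) on a log axis, with 1 library per genotype and therefore no error bars. Actg2 (78.6 against 114 FPKM) and Cnn1 (39.6 against 52.8 FPKM) are the pairs that lie visibly apart, and Tagln lies below 1 FPKM in both.

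Myh11, the heavy chain of smooth muscle myosin and the motor of the cell, was nearly equal in the libraries. The gene (ENSMUSG00000018830, chromosome 16, 14194535 to 14291372, minus strand) had 129.5 FPKM in WT, from 14971 reads, and 132 FPKM in KO, from 15457 reads. The ratio was 1.02, with an interval of 0.996 to 1.04 that spans 1. Mylk, the light chain kinase that switches this motor on (ENSMUSG00000022836, chromosome 16, 34745210 to 35002420, plus strand), had 62.7 FPKM in WT and 65.8 FPKM in KO. Its ratio of 1.05 had an interval of 1.02 to 1.08. These are the members with the most reads, and their ratios are thus the most tightly bounded by counting. Mylk values are sums over the gene, so the kinase and telokin, a short product of the same gene, could not be separated.

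Cnn1 encodes calponin, an actin-binding protein that restrains myosin, and was the other gene that stood higher in KO. It (ENSMUSG00000001349, chromosome 9, 22099216 to 22109630, plus strand) had 39.6 FPKM in WT, from 1888 reads, and 52.8 FPKM in KO, from 2552 reads. The ratio was 1.33, with an interval of 1.26 to 1.42. Set against Myh11 in the same library, Cnn1 was 0.306 in WT and 0.400 in KO, and Actg2 was 0.607 and 0.866. On the same scale Acta2 was 1.62 and 1.58. The thin filament genes thus did not share 1 ratio between the libraries.

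The remaining thin filament genes were smaller in level. Lmod1, leiomodin, which nucleates actin filaments (ENSMUSG00000048096, chromosome 1, 135324807 to 135368065, plus strand), had 9.07 FPKM in WT and 10.8 FPKM in KO. Its ratio was 1.19, with an interval of 1.07 to 1.33 from 624 and 755 reads. Smtn, smoothelin, an actin-associated protein of contractile muscle cells (ENSMUSG00000020439, chromosome 11, 3517523 to 3540612, minus strand), had 12.9 FPKM in WT and 12.1 FPKM in KO. Its ratio of 0.933 had an interval of 0.852 to 1.02, which spans 1. Lmod1 was above and Smtn below equality, and their intervals do not overlap.

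Des and Synpo2 belong to the scaffold that ties filaments together. Des encodes desmin, the intermediate filament protein of muscle (ENSMUSG00000026208, chromosome 1, 75360329 to 75368579, plus strand), with 45.8 FPKM in WT and 50.7 FPKM in KO. The ratio was 1.11, with an interval of 1.05 to 1.16. Synpo2, synaptopodin 2 or myopodin, is an actin-bundling protein (ENSMUSG00000050315, chromosome 3, 123076519 to 123236149, minus strand). It had 7.40 FPKM in WT and 7.76 FPKM in KO, a ratio of 1.05 with an interval of 0.981 to 1.12.

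**Figure D2:**
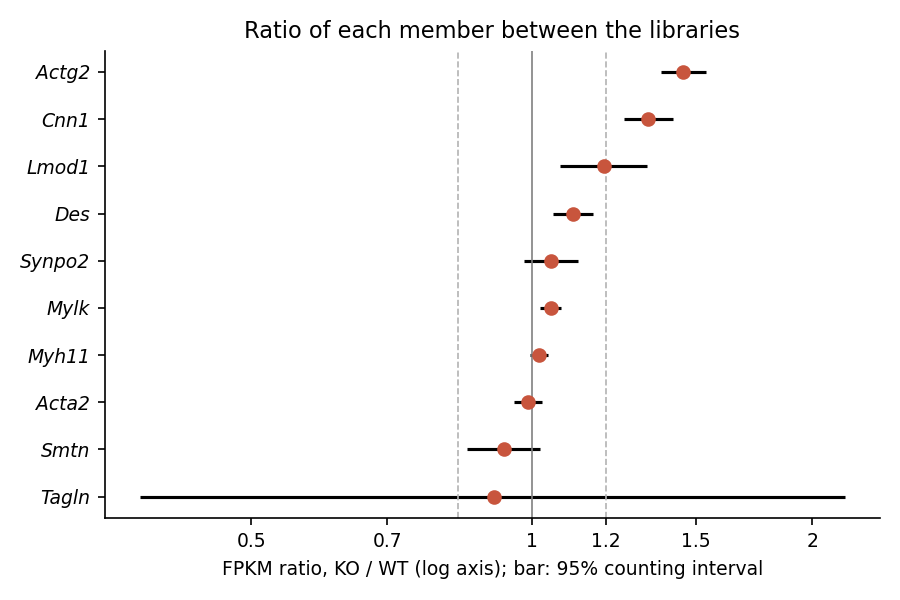
Ratio of KO to WT FPKM for each of the 10 genes on a log axis, with the exact 95% counting interval as a bar, a solid line at 1 and dashed lines at 1.2-fold in either direction. Actg2 (1.45) and Cnn1 (1.33) have intervals wholly above 1.2, and the bar of Tagln is wide since it rests on 13 and 12 reads.

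Counts over the members describe the same picture. The log2 ratio used for counts is log2((KO FPKM + 1) / (WT FPKM + 1)), over genes with at least 1 FPKM in at least 1 library, a filter that 9 of the 10 members passed. Of these 9, 0 were at least 2-fold higher and 0 at least 2-fold lower in KO, where the shares among all 13479 genes compared were 1.61% and 2.51%. At least 1.2-fold higher were 2 members, Actg2 and Cnn1, against 11.3% of all genes, and 0 were 1.2-fold lower, against 18.8%. The log2 ratio was above 0 for 7 of the 9, against 41.3% of all genes. The median of the 9 was 0.07, beside -0.05 over all genes compared. Counting intervals lay wholly above 1 for 5 members, Actg2, Cnn1, Lmod1, Des and Mylk, and 17.6% of all genes had such an interval. Intervals wholly below 1 were found for 0 members and 28.8% of all genes. Whether an interval excludes 1 depends on the number of reads as well as on the ratio. The 9 members had at least 624 reads, and the other genes were not matched to them in reads. These shares are therefore not like for like.

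The order of the levels was almost the same in both libraries. In WT it ran from Acta2 through Myh11, Actg2, Mylk, Des, Cnn1, Smtn, Lmod1 and Synpo2 to Tagln. In KO only Des and Cnn1 changed places. Neighbours in this order had separate exact Poisson 95% intervals of their levels in WT. In KO the intervals overlapped for Cnn1 (50.8 to 54.9 FPKM) and Des (49.0 to 52.5), and for Smtn (11.3 to 12.9) and Lmod1 (10.1 to 11.6).

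Tagln stood apart from the other 9. It encodes transgelin (SM22), an actin-binding protein of smooth muscle that is usually among its abundant transcripts. The gene (ENSMUSG00000032085, chromosome 9, 45929619 to 45936058, minus strand) had 0.375 FPKM in WT and 0.342 FPKM in KO, from 13 and 12 reads. The ratio of 0.911 had a wide interval, 0.380 to 2.17. In both libraries Tagln was the lowest member, and Synpo2, the next, had 7.40 and 7.76 FPKM.

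Most exon bases of Tagln also lie in exons of other genes. In GENCODE M21, 1349 of its 1988 exon bases, or 67.9%, were shared. The antisense gene Gm48529 on the plus strand covered 1241 of them, between 45930112 and 45931773, and the last exon of the neighbouring gene Pcsk7, a proprotein convertase, covered 108. Pcsk7 had 12.8 and 13.4 FPKM and Gm48529 had 0.158 and 0.447 FPKM in WT and KO. If all Tagln reads had come from the 639 unshared bases, the level over those bases would be 1.17 FPKM in WT and 1.06 FPKM in KO. The sources used here do not state how reads in shared bases were counted or whether strand was used.

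Across the table, low levels went with large shares of shared bases, not with small ones. The median WT level of 11506 protein-coding genes without shared exon bases was 2.84 FPKM. It was 3.84 FPKM with up to 10% shared, 3.13 FPKM with over 10% and up to 25%, and 1.61 FPKM with over 25% and up to 50%. Among the 217 genes with over 50% and up to 75% of their exon bases shared, the median was 0.374 FPKM and 67.7% were below 1 FPKM. For 98 genes with over 75% shared, the median was 0.0776 FPKM. Pln, the phospholamban of the calcium store, named after its values were seen, had 64.7% of its exon bases shared and 0.645 and 0.349 FPKM in WT and KO. Shared bases did not always go with a low value, since Myl12b had 26.7% shared and 209 FPKM in WT. Of the other members 6 shared no exon base, while Smtn shared 16.3%, Mylk 6.85% and Des 5.86%. The part of the overlap in the value of Tagln was not tested.

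**Figure D3:**
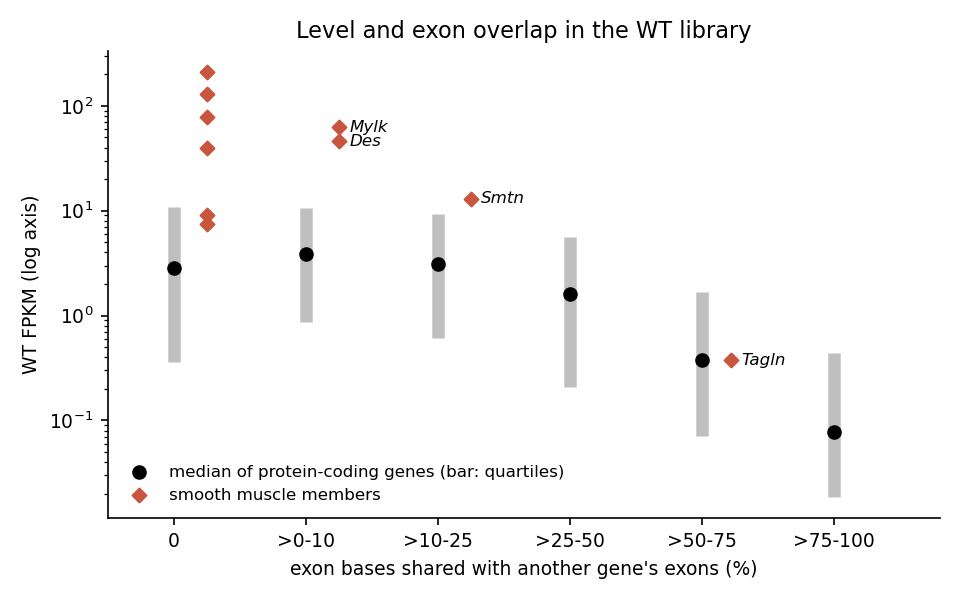
WT FPKM on a log axis by the percentage of exon bases that lie in exons of another gene on either strand. Black points are medians of protein-coding genes with quartiles as bars, and diamonds are the 10 smooth muscle genes. Tagln, at 67.9% shared and 0.375 FPKM, lies at the median of its bin (0.374), while the other members lie above the medians of theirs.

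The most abundant partners of the members in the filament, Myl9, Myl6 and Tpm1, lay within 1.2-fold. In a list of 12 thin and thick filament partners, 9 were compared, with a median log2 ratio of -0.03, and 0 were past 2-fold. Within 1.2-fold lay 6 of the 9, where 69.8% of all genes did. The counts of the lists that follow stand beside the same background, 11.3% of all genes 1.2-fold higher and 18.8% lower. The regulatory light chain Myl9 had 196 FPKM in WT and 191 FPKM in KO, and the essential light chain Myl6 had 185 and 182. Myl9 stood at 1.52 times the level of Myh11 in WT and 1.44 times in KO. Tropomyosin Tpm1 had 90.5 and 95.6 FPKM, a ratio of 1.06 with an interval of 1.03 to 1.09. Past 1.2-fold were Tpm4 upwards and the non-muscle calponin Cnn2 and Smtnl2 downwards. Cnn2 had 14.8 FPKM in WT and 9.69 FPKM in KO. Here and in the lists that follow, some genes past 1.2-fold were named after their values were seen. Some passed the filter through KO alone, such as Chrm3, Tacr1 and Chat. Others passed it through WT alone, such as Smtnl2, Mef2c and Retn. The direction of such genes is partly set by the filter, and they enter the counts and medians of their lists. Counts past 1.2-fold use the log2 scale, so a gene can lie within 1.2-fold there although its plain ratio is past it.

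Across 24 compared genes of dense bodies and adhesion the median log2 ratio was -0.04, with 3 at least 1.2-fold higher, 1 lower and 20 between. The higher ones were Pgm5, Fhl1 and Cav1. Pgm5, aciculin, a protein of muscle adhesion sites, had 21.4 FPKM in WT and 27.5 FPKM in KO, a ratio of 1.28 (1.195 to 1.38). Cav1, the caveolin of membrane pits, which endothelium and fat cells also express, had 18.7 and 25.3 FPKM. The LIM protein Csrp1 had 90.5 and 105 FPKM, a ratio of 1.16 (1.11 to 1.22). Filamin Flna, which crosslinks actin, had 72.8 and 70.4 FPKM. The lower gene was talin Tln1, with 24.5 FPKM in WT and 20.2 FPKM in KO.

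Of genes that set the phosphorylation of myosin, 14 were compared. Of these, 13 lay within 1.2-fold and 1, the guanine nucleotide exchange factor Arhgef1, was lower, with a list median of -0.04. The phosphatase targeting subunit Ppp1r12a had 29.3 FPKM in WT and 30.8 FPKM in KO, and Rhoa had 31.2 and 31.0. Genes of calcium handling and excitability had a median of 0.01 over 11 compared, with 10 within 1.2-fold. The calcium pump of the store, Atp2a2, had 77.2 and 74.1 FPKM. The 1 gene past 1.2-fold was the connexin Gjc1, with 1.72 FPKM in WT and 1.08 FPKM in KO. Receptors that start or relax contraction were low, and 8 of 15 were below 1 FPKM in both libraries. Over the 7 compared, the median log2 ratio was 0.18, the highest of the lists, with 6 above 0 and 1 below. The muscarinic receptor Chrm2 had 3.67 FPKM in WT and 4.30 FPKM in KO. Chrm3, the other muscarinic receptor of gut muscle, had 0.844 and 1.39 FPKM, a plain ratio of 1.65 (1.27 to 2.16), and was the 1 receptor past 1.2-fold on the log2 scale used for counts. Chrm3 and Tacr1 passed the filter only through KO, where they were higher. As plain ratios, Tacr1 (1.42) and the guanylate cyclase gene Gucy1a1, listed as Gucy1a3 (1.22), were above 1.2 as well.

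Across 15 compared regulators of the contractile programme the median log2 ratio was -0.12, below the -0.05 of all genes, with 1 at least 1.2-fold higher, 3 lower and 11 between. Srf had 15.2 FPKM in WT and 12.5 FPKM in KO, a ratio of 0.826 (0.755 to 0.903). Its coactivator Mrtfa, listed as Mkl1, had 6.01 and 4.74 FPKM, and Mrtfb, listed as Mkl2, had 6.44 and 5.85. Myocardin, Myocd, had 1.40 FPKM in WT and 1.22 FPKM in KO, from 157 and 138 reads, and its interval of 0.685 to 1.097 spans 1. The most abundant of the list were Klf4, with 93.8 FPKM in WT and 98.3 FPKM in KO, Hmga1, with 30.4 and 27.6, and Gata6, with 29.0 and 26.9. In whole tissue these values cannot be assigned to muscle or to other cells. The higher gene was Fhl2, a LIM-domain cofactor, with 20.4 and 26.8 FPKM. The lower ones were Mrtfa, Foxf1 and Mef2c. As plain ratios, Srf and Tead1 (0.793, with an interval of 0.712 to 0.883) were past 1.2-fold lower as well.

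Non-muscle relatives of the members were set beside them because epithelium expresses them. Their median log2 ratio was -0.12 over 15 compared, with 3 at least 1.2-fold higher, Tagln2, Tpm4 and Lima1, and 3 lower, Myl12b, Tpm3 and Cnn2. Myl12b, a non-muscle light chain, had 209 FPKM in WT and 170.4 FPKM in KO. The transgelin relative Tagln2 had 84.3 and 106 FPKM, a ratio of 1.26 (1.198 to 1.32). Its level in WT was far above that of Tagln, at 0.375 FPKM.

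**Figure D4:**
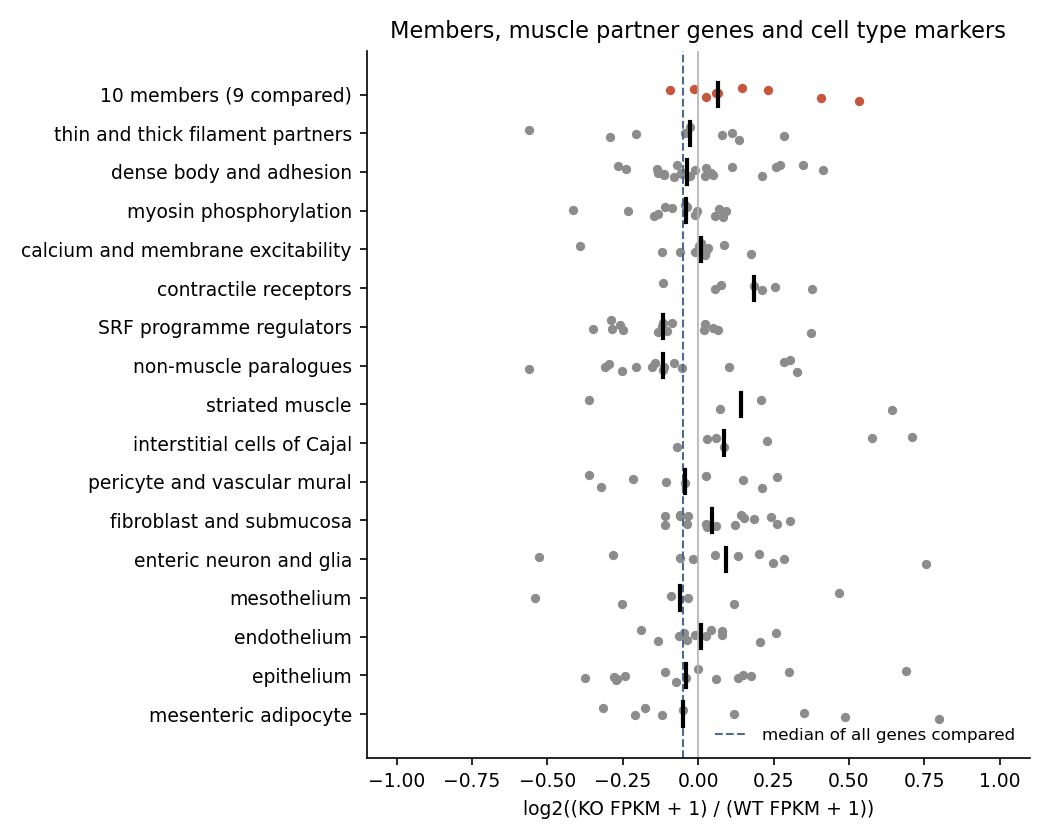
log2((KO FPKM + 1) / (WT FPKM + 1)) of each gene compared, by list, with a black bar at the list median, a dashed line at the median of all genes (-0.05) and a grey line at 0. The 9 smooth muscle genes (red) run from -0.09 to 0.53 with a median of 0.07, and no gene of these lists passes 2-fold on this scale, although Chat and Actc1 do as plain ratios of 4.75 and 2.11.

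Markers of the other cells of the wall gave further gauges of the tissue. In whole tissue, fewer cells of a type and less RNA per cell cannot be told apart. Fibroblast and submucosa genes, of which 16 were compared, had a median of 0.05, with 1 past 1.2-fold, Fbln1, and summed to 609.8 FPKM in WT and 658 FPKM in KO. The largest values in these sums were those of Dpep1, 192 and 219 FPKM, and Gsn, 104 and 116 FPKM. Most of the difference between the sums lay in these 2 genes. In whole tissue their values cannot be assigned to fibroblasts or to other cells. Col1a1 had 27.6 and 25.6 FPKM, and Col1a2 had 19.7 and 19.3. Of the 16 genes, 10 had a log2 ratio above 0 and 6 below. Endothelial genes had a median of 0.01 and all 12 lay within 1.2-fold on the log2 scale, with Pecam1 at 6.96 and 7.19 FPKM. As plain ratios, Lyve1 (1.22) and Cldn5 (1.21) were above 1.2. Pericyte and vascular mural genes had a median of -0.04 over 9 compared, with 2 lower, Notch3 and Cspg4, and 0 higher past 1.2-fold. The pericyte gene Rgs5 had 58.1 FPKM in WT and 69.9 FPKM in KO, a ratio of 1.202 on the plain scale.

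Interstitial cells of Cajal, the pacemakers between the muscle layers, had 2 of 7 compared genes past 1.2-fold, both higher in KO. These were their defining markers Kit and Ano1. Kit, a receptor tyrosine kinase that mast cells also express, had 4.44 FPKM in WT, from 690 reads, and 7.90 FPKM in KO, from 1243 reads. Its ratio was 1.78, with an interval of 1.62 to 1.95. Ano1, the calcium-activated chloride channel of pacemaking, had 3.50 and 5.71 FPKM, a ratio of 1.63 (1.43 to 1.86). The other 5 genes lay within 1.2-fold on the log2 scale, although Cd34 had a plain ratio of 1.23, and the list median was 0.09. The 3 listed genes below the filter were lower in KO. Their ratios were 0.876 (0.658 to 1.17) for Prkcq, 0.677 (0.427 to 1.06) for Thbs4 and 0.508 (0.271 to 0.921) for Hcn4. The sum over the 10 listed genes was 36.2 FPKM in WT and 42.4 FPKM in KO, and none was at 0. The ratios of Kit and Ano1 were both above the 1.45 of Actg2, and their part in the difference of Actg2 was not tested.

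Enteric neuron and glia genes had a median of 0.09 over 10 compared, with 2 past 1.2-fold in each direction. Chat and Tubb3 were higher, and Tac1 and Erbb3, which epithelium also expresses, were lower. Chat, the enzyme of acetylcholine synthesis, which tuft cells also express, had 0.225 FPKM in WT and 1.07 FPKM in KO, from about 18 and 89 reads. Its plain ratio of 4.75 (2.92 to 8.61) was the highest among the listed genes compared, and at these low levels the pseudocount keeps it under 2-fold. Chat passed the filter only through its KO value. Elavl4 and Elavl3, markers of neurons, were below 1 FPKM in both libraries, and Vip, a relaxing neuropeptide, had 8.97 and 9.37 FPKM. Mesothelium, which covers the outer wall, had a median of -0.06 over 6 compared genes, with 1 past 1.2-fold in each direction. Gpm6a was higher, at 1.75 FPKM in WT and 2.80 FPKM in KO, and Upk1b was lower, at 7.20 and 4.64. Its first-listed markers Msln and Upk3b had 2.74 and 2.88 FPKM in WT and 2.14 and 2.79 FPKM in KO. Krt19 made up most of the list's summed FPKM, 707 of 723 in WT and 663 of 679 in KO. In whole tissue its value cannot be assigned to mesothelium or to other cells. Mesenteric fat genes had a median of -0.05 over 9 compared, with 3 higher past 1.2-fold, Cidec, Cfd and Pparg, and 1 lower, Retn. Adipoq had 3.66 FPKM in WT and 4.06 FPKM in KO. Cidec, which enterocytes also express, had 26.7 and 47.3 FPKM. The hormone gene Lep, below the filter, had 18 reads in WT and 1 read in KO. Of 16 striated muscle genes measured, 12 were below 1 FPKM in both libraries, and the other 4 were Acta1, Actc1, Mylpf and Ckm.

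The muscle genes were also set against epithelium. The 15 epithelial genes summed to 13466 FPKM in WT and 12460 FPKM in KO, with a median log2 ratio of -0.04. The 10 muscle genes came to 4.43 FPKM per 100 FPKM of these in WT and to 5.26 in KO. Without Actg2 the quotients were 3.84 and 4.34. The lower epithelial sum in KO rested on Fabp2, an enterocyte fatty acid binder, with 5325 FPKM in WT and 4103 FPKM in KO. Without Fabp2, an alternative added after its value was seen, the other 14 genes summed to 8141 and 8357 FPKM. The 10 muscle genes then came to 7.33 FPKM per 100 in WT and to 7.84 in KO, a ratio of 1.07. Actg2 and Fabp2 were each left out alone and not together, so this ratio still holds the difference of Actg2. Epcam had 979 and 931 FPKM and Vil1 had 924 and 856, whereas the keratin Krt8 had 2131 and 2337. Past 1.2-fold, 2 of the 15 were higher, Krt18 and Tspan8, and 4 were lower, Fabp2, Cldn7, Cldn3 and Elf3.

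Gene length was set beside the ratios as well. Protein-coding genes of up to 2000 exon bases, 1651 in all, had a median log2 ratio of -0.07, and the 1989 above 8000 bases had -0.02. Actg2, with 1557 exon bases, was higher in KO. Myl9, with 1162 exon bases, and Acta2, with 2196, were nearly equal in the libraries. The part of gene length in the ratio of Actg2 was not tested.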

How the data were processed

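Per the labels, RNA of small intestine was taken up in TRIzol and cDNA was amplified by SMART-Seq II. The deposited table holds FPKM values that the authors made per gene and library. The submitters' processing notes name Bowtie2 2.2.3, HTSeq 0.6.0 and the build mm10 with no roles. The sources used here do not state annotation release, read layout, strand setting or filters. Libraries were grouped by title, and columns matched by name.

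GENCODE M21 (GRCm38, the assembly of mm10) held 27222 of the 27275 identifiers. FPKM times summed exon length stepped in whole reads, within 0.01, in both libraries for 91.4% of genes, which gave the depth and reads. For 4 members (Acta2, Myh11, Mylk, Synpo2), reads came from the whole-number pair with the observed ratio whose implied gene length was whole and nearest to M21. The interval of the summed FPKM propagates counting error. The recovery was tested on simulated data. Pseudocount 1 and a filter of 1 FPKM were used. No test of genotype is possible with 1 library each.

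The members, the 17 other lists and the thresholds were chosen with earlier results of these data known. Of 252 listed genes, 7 were not analysed here. Named are all members, the 3 most abundant compared genes of each list, any past 2-fold, Srf, Myocd, Mrtfa, Mrtfb, Spib and the first 2 of each marker list, of which not all are reported here. Python 3.11.15, scipy 1.17.1 and Biopython 1.88 were used. Alternatives were other pseudocounts, filters, scalings and member sets.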

Additional observations from a re-analysis of the deposited data

How the results depend on the processing

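The median log2 ratio of the members stayed between 0.04 and 0.14 under 10 alternatives and 2 more that were added after the data were seen, and the counts past 2-fold stayed at 0 in each direction. The count at least 1.2-fold higher, 2 as reported, was 1 with Acta2 and Actg2 summed, 1 without Actg2 and 0 without Actg2 and Cnn1, by construction of these sets, and 3 after centring on the median of all genes. The count 1.2-fold lower stayed at 0 in all of them. The ratio of the summed FPKM, 1.098, was 1.08 scaled to TPM, 1.12 scaled without the most abundant and mitochondrial genes, 1.14 after centring, 1.16 without Acta2, 1.04 without Actg2 and 1.02 without Actg2 and Cnn1. It was above 1 under every alternative run. No paired analysis was possible because there is 1 library per genotype, and leaving out a library was not possible for the same reason. The ratio of Tagln rests on few reads, 13 and 12, and the cause of this low count was not tested. Of the other members the lowest had 624 reads.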
